A study of Saccharomyces cerevisiae with 9 samples.

Results

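The nuclear genes for the mitochondrial respiratory chain and ATP synthase were followed here through 3′ ends of single RNA molecules from budding yeast, Saccharomyces cerevisiae. The 34 genes were taken by name and comprise 4 of succinate dehydrogenase (complex II), 9 of cytochrome bc1 (complex III), the cytochrome c gene CYC1, 8 of cytochrome c oxidase (complex IV) and 12 of ATP synthase (complex V), of 6516 listed features in all. All strains derive from HHY168 with a deletion of FPR1 (fpr1delta::hphMX4), and all were given rapamycin for 2 hours. The Bdp1AA Rna15AA group carries BDP1-FRB::kanMX6 and RNA15-FRB::His, the Bdp1AA group carries BDP1-FRB::kanMX6 alone, and the group labelled WT carries neither fusion. Each group has 3 libraries, and its deposited table holds them pooled in 1 column. No spread between libraries exists for any value below, and no difference was tested. Intervals are exact 95% intervals of the read counts, which cover counting error only. The sources used here name no medium or carbon source.

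In the anchor-away method, rapamycin bridges an FRB-tagged nuclear protein to an FKBP12-tagged anchor that carries it out of the nucleus, so cells lose its nuclear function without losing the protein. Bdp1 is a subunit of TFIIIB, the initiation factor of RNA polymerase III, and Rna15 is the RNA-binding subunit of cleavage factor IA, which helps to place the cut at the 3′ end of mRNAs. Budding yeast has no complex I; electrons enter through succinate dehydrogenase and single-subunit dehydrogenases, pass through cytochrome bc1 and cytochrome c to cytochrome c oxidase, and the proton gradient made on the way drives ATP synthase. A few subunits of complexes III, IV and V are encoded in mitochondrial DNA, and the nucleus supplies the rest.

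Downstream of genes the tables hold 7020861 reads for Bdp1AA Rna15AA, 14096898 for Bdp1AA and 22048431 for WT. The 34 genes took 104380 (1.49%), 150973 (1.07%) and 159628 (0.724%) of these in the same order of groups. Each of them passed the minimum of 60 reads in every group, with 241 to 16657, 732 to 20689 and 887 to 12262 reads per gene. BDP1 itself had 298 reads past its end in WT, and neither depletion table holds any. RNA15 had 0 reads past its end in Bdp1AA Rna15AA, 143 in Bdp1AA and 380 in WT; inside the gene it had 382 reads in Bdp1AA Rna15AA and 0 in both other groups. BDP1 carries the FRB fusion and its marker in both depletion groups, and RNA15 does in Bdp1AA Rna15AA. In those groups the missing reads past these genes cannot be read as loss of the transcript. FPR1, deleted in all strains by the labels, was listed at 158 reads in WT before any common minimum and was absent from both depletion tables, so the WT table goes against its label there, and each direction against WT below is drawn against it.

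The signal, a scaled number of read ends whose scale the sources used here do not give, was summed over the ends downstream of each gene. It lay between 18.3 and 1263 over the 34 genes in Bdp1AA Rna15AA, between 37.3 and 1054 in Bdp1AA, and between 38.1 and 526 in WT. Fold changes are ratios of this signal, divided by the ratio of the median gene, with 2-fold taken as the mark of a call. On the deposited scale the median gene itself stood at a log2 ratio of -0.34 for Bdp1AA Rna15AA against Bdp1AA, -0.51 for Bdp1AA against WT and -0.86 for Bdp1AA Rna15AA against WT. The 3 comparisons share groups and are not independent of each other. In RNA from whole cultures, fewer cells with a transcript and less RNA per cell cannot be told apart.

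**Figure D1:**
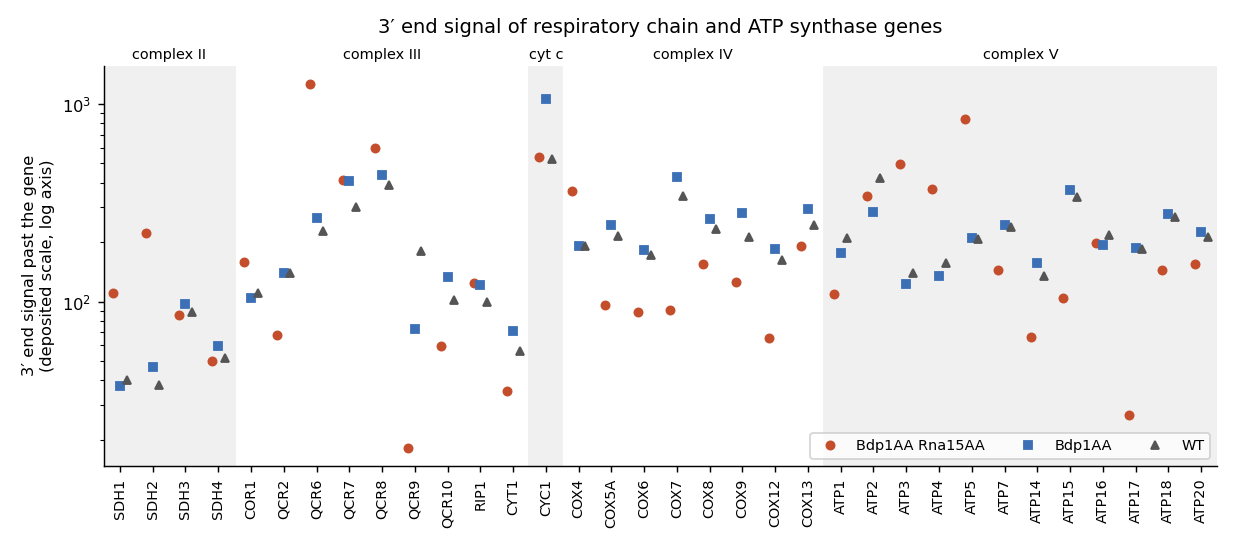
Signal of 3′ ends past each of the 34 genes (deposited scale, log axis), ordered by complex, with 1 pooled value per group: circles for Bdp1AA Rna15AA, squares for Bdp1AA and triangles for WT. Squares and triangles lie close together for most genes, while the circles range from 18.3 (QCR9) to 1263 (QCR6).

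Loss of Bdp1 from the nucleus, Bdp1AA against the group labelled WT, left the respiratory genes close together and mostly a little above the median gene. Their log2 ratios had a median of 0.64 and an SD over genes of 0.36, against 0 and 0.84 over the 4543 genes compared, and 32 of 34 lay above the median gene. On the deposited scale 24 of 34 lay above 0. Only CYC1 was past 2-fold higher (1 of 34, against 6.27% of all genes), and 0 of 34 were past 2-fold lower (9.95% of all genes).

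CYC1, which encodes the main cytochrome c, the soluble carrier between complexes III and IV, had a signal of 1054 in Bdp1AA and 526 in WT. Its log2 ratio was 1.51 (1.48 to 1.55), or 2.86-fold. QCR9, a small subunit of complex III, had a signal of 72.5 in Bdp1AA and 179.7 in WT, a log2 ratio of -0.80 (-0.88 to -0.71). It was the one gene clearly below the median gene. Of its reads, 96.6% in Bdp1AA and 98.7% in WT ended at positions also listed under YGR182C, which overlaps its 3′ region. ATP2, the β subunit of the F1 head, stood at -0.06 (-0.11 to -0.02), with a signal of 284.7 in Bdp1AA and 424 in WT. In WT 98.6% of the ATP2 reads ended at positions also listed under YJR120W, the feature upstream of it, and in Bdp1AA 0% did. The WT reads listed there under YJR120W equalled 53.3% of the ATP2 reads.

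By complex, the median log2 ratio of Bdp1AA to WT was 0.68 in complex II, 0.74 in complex III, 0.71 in complex IV and 0.53 in complex V. The 8 genes of complex IV lay in a narrow band between 0.51 (COX4) and 0.90 (COX9). Succinate dehydrogenase ran from 0.40 for SDH1, its flavoprotein, to 0.81 for SDH2, its iron-sulfur protein. The α subunit of the F1 head, ATP1, had 0.26 and ATP14, a stalk subunit, had 0.72, the highest of complex V. Of the ATP14 reads 100% in every group ended at positions also listed under another gene, YLR294C among them. The complexes differed among themselves by less than genes did within complex III or V.

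Gene length moved with this comparison. Over the 4382 coding genes compared, the log2 ratio of Bdp1AA to WT had a Spearman rank correlation of -0.64 with gene length, and over the 34 genes of -0.50. Both describe genes of the same pooled tables. The 34 genes are short, with a median of 454.5 nt against 1140 nt over all genes compared, and 22 of them fell into the shortest sixth of coding genes. There they had a median log2 ratio of 0.69, against 0.52 for all coding genes of that sixth. Set against coding genes of like length, the median of the 34 was 0.22 and 31 lay above 0, and CYC1 had 0.99, just short of 2-fold. The part of length in the higher signal was not tested further.

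**Figure D2:**
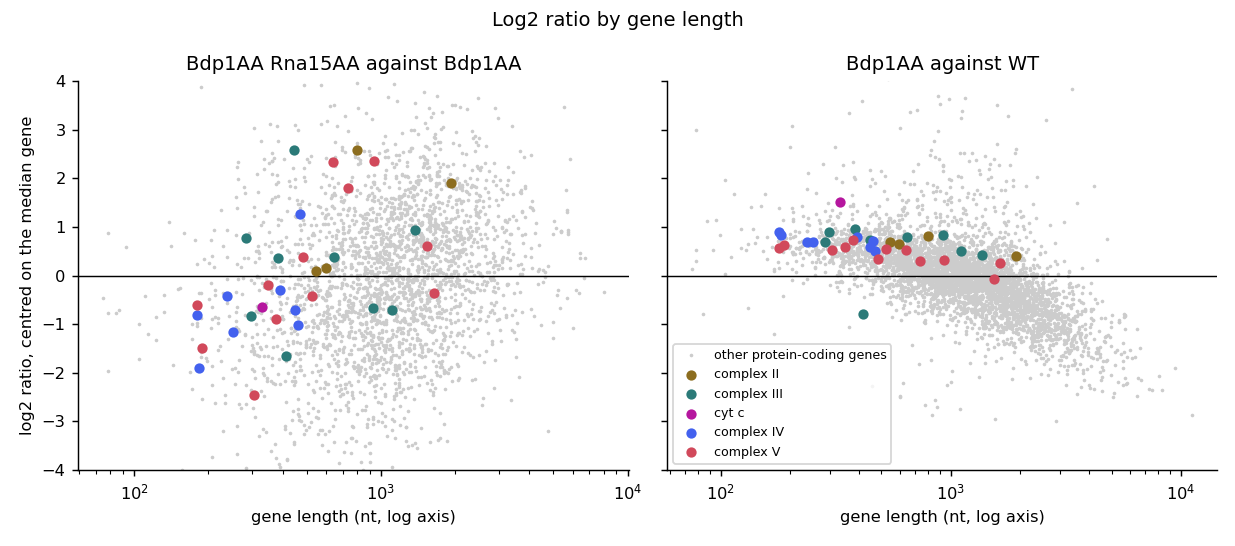
Log2 ratio (centred on the median gene) against gene length in nt (log axis) for Bdp1AA Rna15AA against Bdp1AA (left) and Bdp1AA against WT (right); grey points are other protein-coding genes, coloured points the 34 genes by complex, and genes beyond 4 log2 units are not drawn. On the right the coloured points follow the downward band of all coding genes with CYC1 above it at 1.51 and QCR9 below it at -0.80; on the left they spread from -2.46 to 2.58.

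The places where transcripts ended hardly differed between Bdp1AA and WT. The shift, the difference in mean 3′ end position, was 20 nt or more in the distal direction for 0 of 34 genes (2.33% of all genes) and in the proximal direction for 0 of 34 (0.902%). The median shift was 0.24 nt and 30 genes lay within 5 nt, as did 3849 of the 4543 genes compared. COX6, subunit VI of the oxidase, had the largest, 17.4 nt, with mean ends at 243.7 nt past the gene in Bdp1AA and 226 nt in WT. The single most used end was the same base in 33 of 34 genes, a share not computed over all genes. In ATP2 it was 230 nt past the gene in Bdp1AA and 190 nt in WT. Site usage, the share of reads in clusters of ends at most 25 nt apart, moved by 20 percentage points in 0 of 34 genes (1.52% of all genes). None of the 34 has a tRNA gene within 500 bp past its end, whereas 94 of the coding genes compared do.

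Some of these main ends are shown with the 24 bases before them and the 5 after, read from the R64 reference on the gene's strand, with the end base in a capital. CYC1, RIP1, COX6, ATP4 and ATP1 were chosen because the contrast between them carries the 3′ end results that follow. Where a group name is given, the end is the most used one of that group.
CYC1, 177 nt past the gene, most used in all groups (chrX:526817-526846, plus strand): ttaagaacgttatttatatttcaaAttttt
RIP1, 400 nt, most used in Bdp1AA and WT (chrV:108283-108312, plus strand): taattaacgaaactatttatcttcCctcgt
RIP1, 572 nt, most used in Bdp1AA Rna15AA (chrV:108455-108484, plus strand): attacctataaaattttttatattAcgtac
COX6, 118 nt, most used in Bdp1AA and WT (chrVIII:210245-210274, plus strand): ttttgtaaaacgattttagtttttAttttt
COX6, 461 nt, most used in Bdp1AA Rna15AA (chrVIII:210588-210617, plus strand): caaaaacctagaatataccattaaAgaatt
ATP4, 259 nt, most used in all groups (chrXVI:407746-407775, minus strand): gatttaataagtgcgcacaatgctAcatct
ATP4, 461 nt, a further end in Bdp1AA Rna15AA (chrXVI:407544-407573, minus strand): tgataacttcgataaatataccaaAcgagg
ATP1, 237 nt, most used in all groups (chrII:38903-38932, plus strand): ctaaggaaatgagttactacaaaaAtaagg
ATP1, 1955 nt, a further end in Bdp1AA Rna15AA, past the next gene BNA4 (chrII:40621-40650, plus strand): cactaattattttatgtgatgttgAtcacg

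The sources used here do not say how ends were placed where the genome holds a run of A. The end base of the most used WT end was A in 32 of 34 genes and in 93.9% of 4974 coding genes, and the next base was A in 0.448% of coding genes on the plus strand and 0.655% on the minus strand. In the 100 bases before that end, TATATA, the usual form of the yeast efficiency element, occurred in 19 of 34 genes (55.9%) and in 49.8% of coding genes. AATAAA or AAAAAA, forms of the A-rich positioning element, occurred in 13 (38.2%) and in 34.9%. Only the gene's strand was searched, and matches are a description of letters. The shares of the 34 genes were near those of all coding genes.

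Loss of Rna15 in addition to Bdp1, Bdp1AA Rna15AA against Bdp1AA, gave the respiratory genes, like all genes, a wider spread of ratios than Bdp1AA against WT. Of the 34, 7 were past 2-fold higher (25% of all genes compared) and 6 past 2-fold lower (25.2%), with an SD over the 34 of 1.31, against 1.53 over all 2935 genes compared. The median log2 ratio was -0.33. The higher genes were SDH1 and SDH2 of complex II, QCR6 of complex III, COX4 of complex IV, and ATP3, ATP4 and ATP5 of complex V. The lower ones were QCR9 of complex III, COX5A, COX7 and COX12 of complex IV, and ATP15 and ATP17 of complex V. These shares lie at or below those of all genes.

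Among the higher genes, QCR6, the acidic hinge protein of complex III, had a signal of 1263 in Bdp1AA Rna15AA, 266 in Bdp1AA and 228 in WT. Its log2 ratio of Bdp1AA Rna15AA to Bdp1AA was 2.58 (2.54 to 2.63). SDH2 had 222, 46.8 and 38.1 in the same order, the same log2 ratio of 2.58 (2.47 to 2.69). Of the QCR6 reads 75.5%, 95.9% and 84.2% ended at positions also listed under another gene, PHO4 among them. The reads listed there under PHO4, the gene next upstream, equalled only 2.31%, 6.30% and 6.58% of the QCR6 reads. In both genes the Bdp1AA and WT values lay close together and the Bdp1AA Rna15AA value lay far above them. ATP5, the OSCP subunit that ties the stalk to the F1 head, had 839.9, 209.8 and 207, a log2 ratio of 2.34 (2.29 to 2.39). ATP3, the rotating γ subunit, had 496, 123 and 140.3, a log2 ratio of 2.35 (2.28 to 2.42). ATP4, the b subunit of the stator stalk, had 371, 135 and 156, a log2 ratio of 1.79 (1.73 to 1.86). The high value again belonged to Bdp1AA Rna15AA alone. SDH1 had 110.3, 37.3 and 40.2 (1.90, 1.77 to 2.03), and COX4, subunit IV of the oxidase, 364, 190.6 and 190.9 (1.27, 1.21 to 1.33). Of the COX4 reads 80.2%, 75.1% and 96.4% ended at positions also listed under another gene, YGL188C among them.

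Among the lower genes, ATP17, subunit f of the membrane part, had a signal of 26.8 in Bdp1AA Rna15AA, 186 in Bdp1AA and 184 in WT. Its log2 ratio of Bdp1AA Rna15AA to Bdp1AA was -2.46 (-2.63 to -2.31). COX7, subunit VII of the oxidase, had 90.5, 427 and 342 in the same order, a log2 ratio of -1.90 (-1.99 to -1.82). QCR9 had 18.3, 72.5 and 179.7, a log2 ratio of -1.65 (-1.86 to -1.45), and its 3 values do not lie close together in any pair. ATP15, the ε subunit of the F1 stalk, had 103.9, 366 and 337 (-1.48, -1.57 to -1.40). COX12, subunit VIb, had 65.4, 185 and 162 (-1.16, -1.27 to -1.06). COX5A, the aerobic form of subunit V, had 95.6, 245 and 214 and lay at the mark with -1.02 (-1.11 to -0.93). CYC1 had 537, 1054 and 526, a log2 ratio of -0.64 (-0.68 to -0.60).

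**Figure D3:**
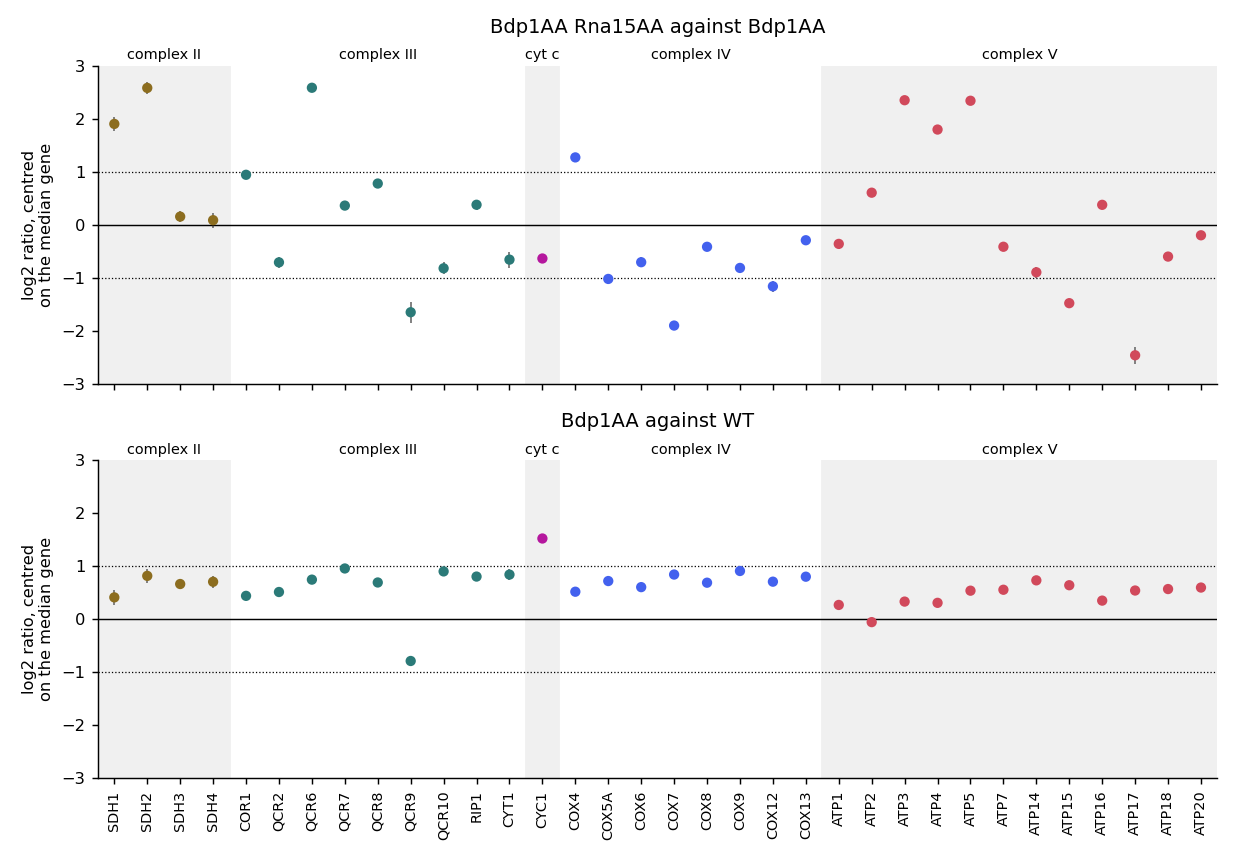
Log2 ratios of 3′ end signal, centred on the median gene, for each of the 34 genes by complex; upper panel Bdp1AA Rna15AA against Bdp1AA, lower panel Bdp1AA against WT. Bars are exact 95% counting intervals, most of them smaller than the points, and dotted lines mark 2-fold; the points spread from -2.46 to 2.58 in the upper panel and, CYC1 and QCR9 apart, from -0.06 to 0.95 in the lower one.

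The complexes did not move as units between Bdp1AA Rna15AA and Bdp1AA. The median log2 ratio was 1.03 in complex II, 0.36 in complex III, -0.76 in complex IV and -0.28 in complex V. Set against coding genes of like length, these medians were 1.00, 0.82, -0.11 and 0.25, so that of complex V turned sign. In complex IV, 7 of 8 genes lay below the median gene, with COX4 the exception; against genes of like length COX8 (0.23) and COX13 (0.36) lay above 0 as well. Within the F1 head of ATP synthase the 5 subunits had 2.35 (ATP3, γ), 0.60 (ATP2, β), 0.37 (ATP16, δ), -0.36 (ATP1, α) and -1.48 (ATP15, ε). Within the stator, ATP5 and ATP4 were higher at 2.34 and 1.79, whereas ATP7 had -0.42 and ATP14 had -0.90. Values within complex III ran from -1.65 for QCR9 to 2.58 for QCR6, with 0.94 for the core subunit COR1 and -0.71 for its partner QCR2.

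The members not yet given also lay on either side of the median gene. The membrane anchors of complex II, SDH3 and SDH4, had 0.15 and 0.08. In complex III the small subunits QCR7 and QCR8 had 0.36 and 0.78, whereas QCR10, another small subunit, had -0.82 and CYT1, cytochrome c1, had -0.66. RIP1 had 0.38. In complex IV, COX6, COX8, COX9 and COX13, all small nuclear subunits around the catalytic core, had -0.71, -0.42, -0.82 and -0.29. ATP18 and ATP20, small subunits of the membrane part of ATP synthase, had -0.60 and -0.20.

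Gene length moved with this spread as well. The Spearman rank correlation of the log2 ratio with gene length was 0.57 over the 34 genes and 0.26 over 2796 coding genes. In the shortest sixth of coding genes the 21 members had a median of -0.64, against -0.65 for that whole sixth. In the second sixth (528 to 804 nt) the 6 members had 1.09, against -0.44. Set against coding genes of like length, 10 of the 34 were past 2-fold higher (25.5% of all genes on that scale) and 2 past 2-fold lower (22.8%; COX7 at -1.25 and ATP17 at -1.81), and the median turned to 0.25. On the deposited scale 6 were higher (17.3% of all genes) and 11 lower (33.5%).

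Against the group labelled WT, 11 of the 34 genes were past 2-fold higher in Bdp1AA Rna15AA (26.1% of all genes) and 3 past 2-fold lower (24.6%). The 11 were the 7 above with COR1, QCR7, QCR8 and RIP1, all of complex III. Complex III had 5 of 9 genes past the mark, with a median log2 ratio of 1.18. The 3 lower genes were QCR9 at -2.44, ATP17 at -1.92 and COX7 at -1.06. On the deposited scale, where the median gene is at -0.86, 6 were higher (10.5% of all genes) and 8 lower (45.8%), and 12 of 34 lay above 0 in place of 23.

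Transcripts of the respiratory genes ended farther downstream in Bdp1AA Rna15AA. The mean end, taken as the median over the 34 genes, was 268 nt past the gene in Bdp1AA Rna15AA, 208.8 nt in Bdp1AA and 208 nt in WT, against 154, 118 and 119.6 nt for coding genes with at least 60 reads. The mean end was shifted distal by 20 nt or more in 22 of 34 genes against Bdp1AA (42.2% of all genes) and in 22 of 34 against WT (41.9%). No gene was shifted proximal by 20 nt in either (1.26% and 1.17% of all genes). The median shift against Bdp1AA was 30.5 nt, against 12.6 nt over all genes. Much of the shift lay in a tail of distant ends: by the median end in place of the mean, 5 of the 34 were distal (21.8% of all genes) and 1, QCR2, proximal; with ends within 500 nt alone, 12 of 33 were distal (27.6% of all genes). With each end counted under the nearest gene alone, 16 of 34 were distal (31.3%).

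The 5 with a distal median end were RIP1, COX6, ATP14, ATP15 and ATP16. In RIP1, the Rieske iron-sulfur protein of complex III, the median end was 576 nt past the gene in Bdp1AA Rna15AA and 403 nt in both Bdp1AA and WT. In COX6 it was 467 nt, against 127 nt in Bdp1AA and 126 nt in WT. In ATP15 it was 184 nt against 123 nt in both, in ATP16, the δ subunit, 284 nt against 223 nt in both, and in ATP14 272 nt against 249 nt in both. As given above, every ATP14 end was also listed under another gene. In these 5 genes the middle of the distribution, and not its tail alone, lay farther on. In QCR2 it was 168 nt in Bdp1AA Rna15AA and 221 nt in both other groups.

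**Figure D4:**
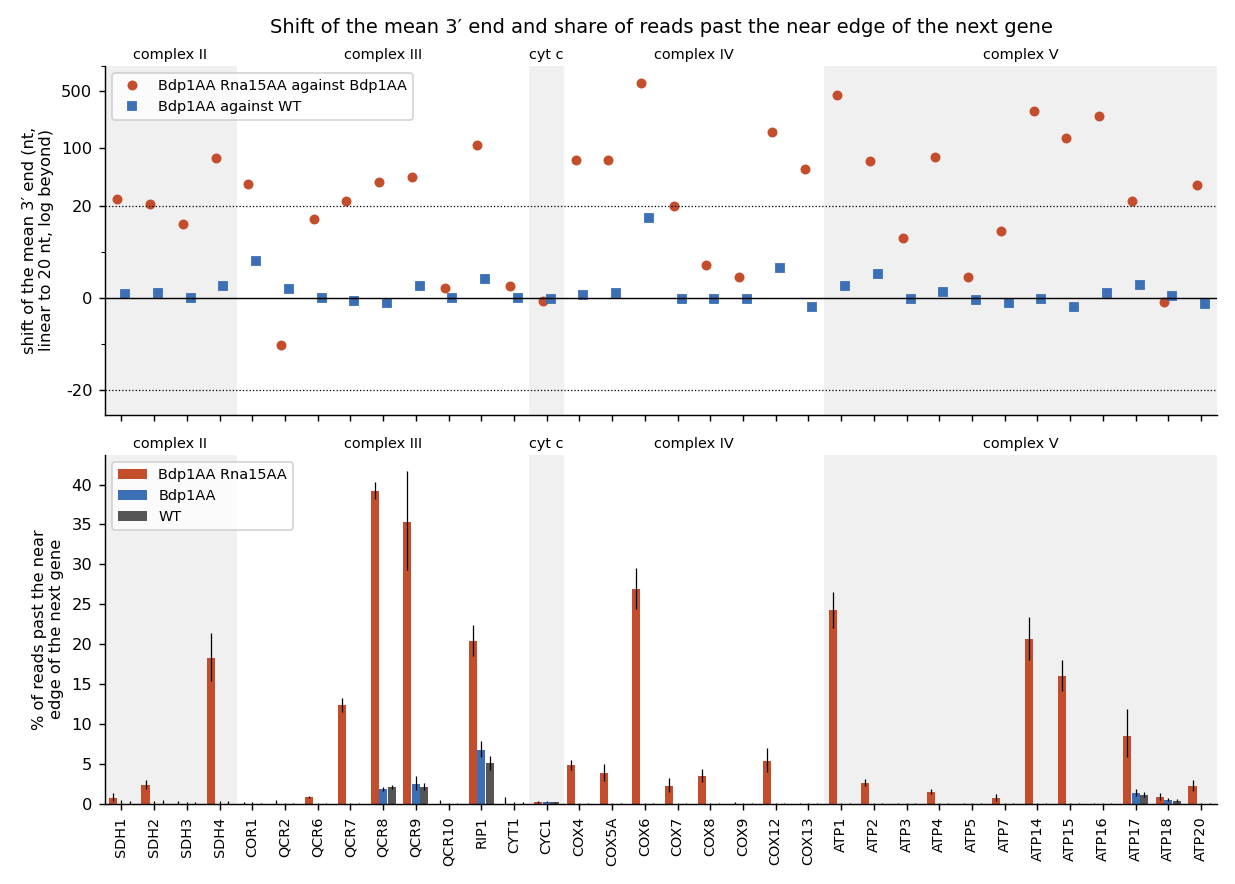
Upper panel, shift of the mean 3′ end in nt for each gene (axis linear to 20 nt and logarithmic beyond; dotted lines at 20 nt in either direction), circles for Bdp1AA Rna15AA against Bdp1AA and squares for Bdp1AA against WT. Lower panel, share of a gene's reads past the near edge of the next gene in Bdp1AA Rna15AA, Bdp1AA and WT from left to right, with exact 95% counting intervals. The squares stay within 17.4 nt while 22 circles lie above 20 nt, and bars above 5% are found in 11 genes in Bdp1AA Rna15AA and in RIP1 in the other groups.

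Clusters of ends showed which sites were used. At least 20 percentage points of reads sat in other clusters in 13 of 34 genes in Bdp1AA Rna15AA against Bdp1AA (27.1% of all genes) and in 11 against WT (26.6%). ATP2 and ATP15 passed against Bdp1AA alone, but clusters for these counts were formed anew for each pair of groups. With clusters formed over all 3 groups, 1 cluster held nearly all reads of each gene. In ATP15 it lay at 103 to 261 nt, with 96.1% in Bdp1AA Rna15AA, 100% in Bdp1AA and 100% in WT. In ATP2 it lay at 188 to 372 nt, with 96.9%, 100% and 99.0%. The shares below are from clusters over all 3 groups. RIP1 has a near cluster from 382 to 414 nt and a far one from 538 to 633 nt. The near one held 4.34% of reads (3.40 to 5.44) in Bdp1AA Rna15AA, 64.4% (62.4 to 66.3) in Bdp1AA and 66.5% (64.5 to 68.4) in WT. The far one thus went with Bdp1AA Rna15AA, at 95.7%, against 35.6% in Bdp1AA and 33.5% in WT. RIP1 signal was 124 in Bdp1AA Rna15AA, 120.7 in Bdp1AA and 99.2 in WT on the deposited scale. Relative to the median gene, Bdp1AA Rna15AA was 1.30-fold against Bdp1AA and 2.26-fold against WT.

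Of the other genes with a near and a far site in all groups, COX6, COR1, COX12, COX13 and QCR9 moved the same way. COX6 had 5.23% of reads at 97 to 158 nt in Bdp1AA Rna15AA, 58.5% in Bdp1AA and 63.2% in WT, and 62.0%, 31.7% and 26.3% at 442 to 487 nt. Of the COX6 reads 83.4% in Bdp1AA Rna15AA, 100% in Bdp1AA and 100% in WT ended at positions also listed under YHR050W-A or CIC1. The reads listed there under YHR050W-A, next upstream, equalled 17.1%, 26.3% and 76.2% of the COX6 reads. COR1 had 3.20%, 27.3% and 30.2% at 189 to 229 nt. COX12 had 8.00%, 33.4% and 37.5% at 72 to 169 nt, and COX13, subunit VIa, had 16.9%, 43.9% and 42.3% at 70 to 139 nt. QCR9, most of whose reads share positions with YGR182C, had 55.6%, 94.0% and 92.7% at 339 to 403 nt. At 440 to 461 nt it had 44.4%, 2.53% and 2.08%. In each of these genes the near site held the smallest share in Bdp1AA Rna15AA. COX7 hardly differed, with 8.80%, 9.79% and 9.78% at 85 to 110 nt in the same order of groups. ATP17 differed little, with 61.8%, 67.4% and 69.9% at 262 to 295 nt. ATP20 had 86.6%, 99.6% and 99.1% at 67 to 131 nt. QCR2 went the other way: its near cluster at 106 to 168 nt held 55.1% (51.8 to 58.4), 31.2% (29.5 to 33.0) and 33.9% (32.3 to 35.5).

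A second pattern was a far cluster listed in Bdp1AA Rna15AA with no counterpart in the other tables. In ATP4, 42.3% of reads (40.9 to 43.7) ended at 339 to 483 nt, against 0% in Bdp1AA (upper limit 0.139) and 0% in WT (upper limit 0.101). In ATP16, 29.2% (27.5 to 31.0) ended at 1012 to 1042 nt, against 0% in both. Positions under the common minimum are left out of every table, so these limits hold for listed reads.

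CYC1 kept its ends in all 3 groups. Its base at 177 nt held 67.2% of reads in Bdp1AA Rna15AA, 67.5% in Bdp1AA and 67.4% in WT, and the shift against Bdp1AA was -0.71 nt. The 6 genes within 5 nt were CYC1, ATP18 (-0.97 nt), QCR10 (2.26 nt), CYT1 (2.63 nt), ATP5 (4.53 nt) and COX9 (4.66 nt). Over all genes compared, 907 of 2935 lay within 5 nt. ATP5, with a centred ratio of 5.06-fold, kept its ends in place: 97.2% of its reads in Bdp1AA Rna15AA, 100% in Bdp1AA and 100% in WT lay at 148 to 192 nt. The most used base was the same in 22 of 34 genes between Bdp1AA Rna15AA and Bdp1AA, in 6 of the 7 genes past 2-fold higher and in 3 of the 6 past 2-fold lower. These shares were not computed over all genes. The size of the shift had a Spearman rank correlation of -0.02 with the log2 ratio over the 34 genes.

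**Figure D5:**
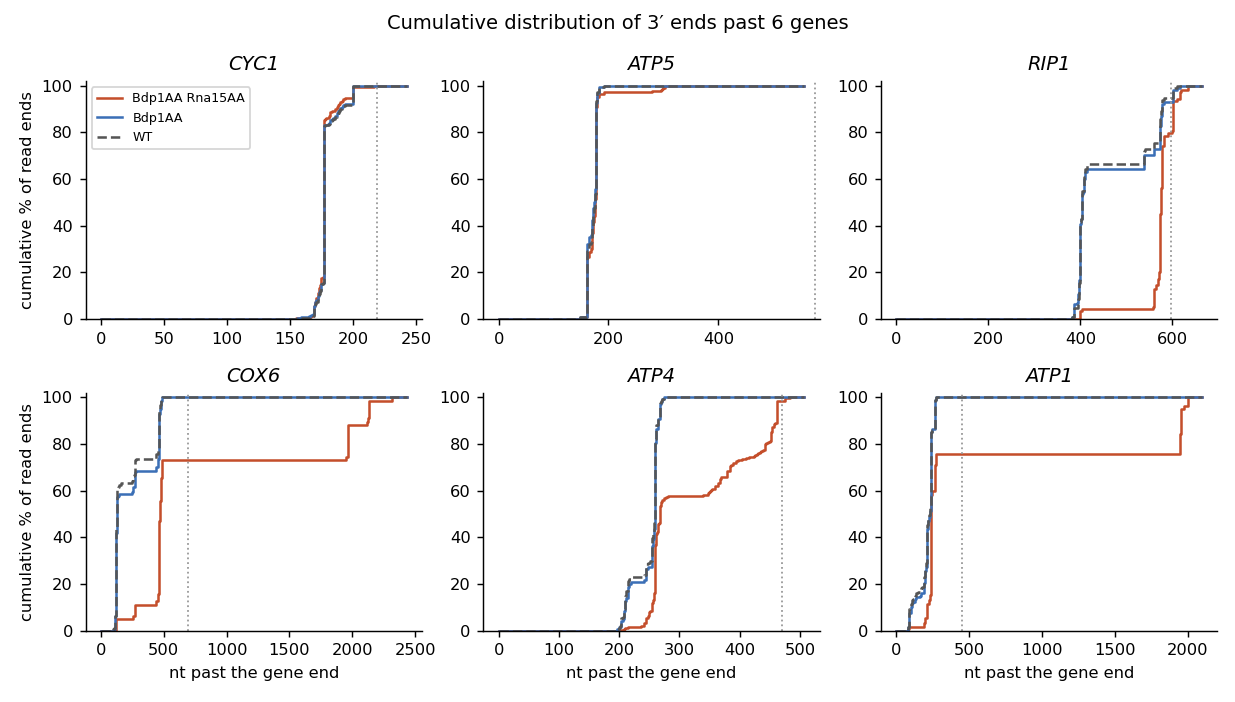
Cumulative share of read ends (%) against distance past the gene end (nt) for CYC1, ATP5, RIP1, COX6, ATP4 and ATP1, with lines for Bdp1AA Rna15AA, Bdp1AA and WT (dashed); the dotted vertical line is the near edge of the next gene. The lines of Bdp1AA and WT nearly coincide in each panel; that of Bdp1AA Rna15AA coincides with them in CYC1 and ATP5, starts later in RIP1 and COX6, and reaches 1950 nt and beyond in COX6 and 1944 nt and beyond in ATP1.

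Reads past the near edge of the next gene on either strand made up 6.04% of the reads of the 34 genes in Bdp1AA Rna15AA, 0.317% in Bdp1AA and 0.303% in WT. At least 5% of reads lay there in 11 genes in Bdp1AA Rna15AA (31.2% of coding genes), and in 1, RIP1, in Bdp1AA (17.4%) and in WT (18.2%). QCR8, a small subunit of complex III whose convergent neighbour HAL5 lies 175 bp on, had the largest share: 39.3% (38.2 to 40.3) in Bdp1AA Rna15AA, 1.82% (1.55 to 2.13) in Bdp1AA and 2.08% (1.80 to 2.40) in WT. QCR9 had 35.3% (29.2 to 41.7), 2.53% and 2.08%, and SDH4, a membrane anchor of complex II, had 18.3% (15.4 to 21.4), 0% and 0%. The next gene lies on the same strand in 19 of the 34 genes and on the opposite one in 15, and 11 of each were shifted distal against Bdp1AA. Among coding genes 48.7% with the next gene on the same strand and 37.0% with it on the opposite strand were shifted distal.

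Of the 19 genes followed by a gene on the same strand, 12 had reads in Bdp1AA Rna15AA that ended past the far edge of that gene, 1566 reads in all, and 0 had any in Bdp1AA or WT. The 12 were SDH1, SDH2, QCR6, COX4, COX5A, COX6, COX12, ATP1, ATP2, ATP7, ATP14 and ATP15. The share of all coding genes with such reads was not computed, so 12 of 19 stands without a background. SDH1 had 11 such reads and ATP7 had 13, each at a single position, at or near the minimum of 11 reads per position. All of the positions (100% of these reads) were also listed under the next gene. In 9 of the 12 the position most used by these reads was the most used end listed under that gene in Bdp1AA. An end listed under a gene need not be its own. For QCR6 that position lay 550 nt past MIN10, and for COX4 666 nt past YGL188C-A. RPL29 shared end positions with QCR6, and RPS26A with COX4, in Bdp1AA Rna15AA. ATP1 had 348 such reads, 24.3% of its total, and its most used far end, shown above, is the main end of BNA4, kynurenine 3-monooxygenase. That base had 156 reads under ATP1 and 512 under BNA4. COX6 had 314, or 26.9%, at the ends of CIC1, a nucleolar protein gene, with 134 reads under COX6 and 526 under CIC1 at the main one. ATP14 had 180, or 20.6%, past GSP1, which encodes the yeast Ran GTPase. The sources used here do not give the rule that put a read under a gene, and whether a read is counted under both genes was not tested.

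Isoforms and partners of the pathway were read from lists that are not members. CYC7, the second cytochrome c isoform, known for expression under low oxygen, had a signal of 108 in Bdp1AA Rna15AA, 54.4 in Bdp1AA and 16.1 in WT. Its log2 ratio of Bdp1AA to WT was 2.27 (2.10 to 2.45). COX5B, the counterpart of COX5A under low oxygen, had 4.17 from 55 reads in Bdp1AA Rna15AA, under the minimum for a ratio, and 84.7 and 30.6 in Bdp1AA and WT, a log2 ratio of 1.98. COX26, a small protein of the respiratory supercomplex, had 50.9 in Bdp1AA and 11.6 in WT, a log2 ratio of 2.65 (2.45 to 2.84). The list of isoforms and further subunits had 4 of 8 genes past 2-fold higher in Bdp1AA against WT (6.27% of all genes), and 0 lower (9.95%). These genes are short, with a median of 259.5 nt, and short genes ran high in this comparison. Set against coding genes of like length, the median log2 ratio of the list was 0.42 in place of 0.95.

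The tricarboxylic acid cycle, which feeds complex II, had 6 of 11 genes past 2-fold higher (25% of all genes) and 0 lower (25.2%) in Bdp1AA Rna15AA against Bdp1AA, with a median log2 ratio of 1.45. In Bdp1AA against WT 1 of 11 was higher (6.27%). CIT1, citrate synthase, had a signal of 253 in Bdp1AA Rna15AA and 82.3 in Bdp1AA, and KGD1, of α-ketoglutarate dehydrogenase, had 53.0 and 17.2, both with a log2 ratio of 1.96. In Bdp1AA Rna15AA against WT 9 of 11 were past 2-fold higher (26.1%) and 0 lower (24.6%). Of the other electron donors, GUT2, the mitochondrial glycerol-3-phosphate dehydrogenase, had 75.1 in Bdp1AA Rna15AA and 8.36 in Bdp1AA (3.50, 3.26 to 3.75), and NDE1, the external NADH dehydrogenase, 37.0 and 192 (-2.04, -2.18 to -1.90). Carriers included POR1, the outer membrane porin, with a signal of 362, 1476 and 703 in Bdp1AA Rna15AA, Bdp1AA and WT.

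Assembly factors were partly too low to compare: 10 of 22 for complex IV, 6 of 13 for complex III, 4 of 9 for complex V and 2 of 4 for complex II reached 60 reads in both Bdp1AA Rna15AA and Bdp1AA. Over all genes 25% were past 2-fold higher and 25.2% past 2-fold lower in that comparison. For complex IV 2 were past 2-fold higher, among them COX10, heme A synthesis (37.4 and 4.89, a log2 ratio of 3.27), and 3 lower, among them COX14 (7.89 and 60.9, -2.61). For complex III 3 were higher, with CBP4 at 2.34 and CYC3, cytochrome c heme lyase, at 2.30, and 1 was lower. For complex V 2 were higher and 0 lower, and for complex II 0 and 1. In Bdp1AA against WT, where more genes could be compared, these lists had 1 of 18, 0 of 11, 0 of 5 and 1 of 3 genes higher (6.27% of all genes). None had a gene lower (9.95%). The 8 mitochondrially encoded genes of the list were compared in none.

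Upstream of the start codon most of the 34 genes share a sequence feature that their selection did not use. CCAAT, the core of the sites bound by the Hap2/3/4/5 complex, the activator of respiratory genes in budding yeast, was found on either strand within 300 bases before the start codon of 30 of the 34 (88.2%), against 42.4% of 5436 coding genes. At least 2 sites were present in 14 (41.2%), against 10.2%. All 4 genes of complex II and all 12 of complex V had one, as did 7 of 9 in complex III and 7 of 8 in complex IV. CYC1, the one gene past 2-fold higher in Bdp1AA, had none in that window, nor did COR1, CYT1 and COX4. Matches are letters on either strand (CCAAT or ATTGG) and not measured binding. A site that departs from these letters is not found, so a gene without a match, CYC1 included, may still have one. The following windows on the gene's strand, with the motif in capitals, are from a subunit past 2-fold higher and one past 2-fold lower in Bdp1AA Rna15AA against Bdp1AA in complexes III and V, which carry the motif alike.
QCR6, first base 243 before the start codon (chrVI:224995-225024, minus strand): cgtgaccgtgcaCCAATgggaagcacgttc
QCR9, 207 before (chrVII:859666-859695, minus strand): attatacacgacCCAATcaaacgcggggaa
ATP3, 195 before (chrII:315368-315397, plus strand): cgtgatggagaaCCAATgagcggcgagtaa
ATP17, 229 before (chrIV:1228370-1228399, plus strand): ttacggagagaaCCAATcatatcgaaggat

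HAP4, the regulated activation subunit of that complex, had a signal of 13.2 in Bdp1AA Rna15AA, 42.0 in Bdp1AA and 52.8 in WT. Its log2 ratio was -1.33 (-1.58 to -1.10) against Bdp1AA and -1.15 (-1.38 to -0.92) against WT. HEM1, the first enzyme of heme synthesis, had 6.37, 52.9 and 72.8, with -2.72 (-3.06 to -2.40) and -2.66 (-2.99 to -2.34). The list of regulators holds 10 genes, the enzyme gene HEM1 among them, and 4 could be compared between Bdp1AA Rna15AA and Bdp1AA. Of these, 2 (HAP4 and HEM1) were past 2-fold lower (25.2% of all genes) and 0 higher (25%). In Bdp1AA against WT 8 genes of this list were compared. The highest were HAP2 and HAP5 at 0.57 and 0.43 and the lowest MOT3 and SNF1 at -0.92 and -0.38. Past 2-fold were 0 in either direction (6.27% of all genes higher and 9.95% lower).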

How the data were processed

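RNA from 9 libraries was sequenced directly on the Oxford Nanopore platform with the submitters' kit, per the labels' protocols. The authors deposited 1 table per group, 3 libraries pooled, with a signal, a scaled number of read ends, for each gene and 3′ end position. The genome build is R64, per the submitters' processing notes; the aligner is not given in the sources, nor is the scaling. Deposited values were whole multiples (100%, within 0.001) of 1 step per table, taken as 1 read. Starts are counted from 0 in the tables and were set to 1-based coordinates; 5826 of 5835 features with a locus tag matched the R64 annotation exactly. A common minimum signal of 0.83413 per position (11, 17 and 20 reads in Bdp1AA Rna15AA, Bdp1AA and WT) was applied, and ends past the gene were kept. Pooled columns hold no spread between libraries, so no test was made. Genes with 60 reads in both groups were compared, with calls at 2-fold, 20 nt and 20 percentage points; clusters of under 10 reads were left out. Sequences come from the R64 RefSeq reference. The members and lists were chosen with earlier results of these data known. Every member is named. Others named are BDP1, RNA15, FPR1, COX5B, CYC7, the next genes of members, and genes from among the 2 highest and 2 lowest of each list, not all of which are printed. Features that share end positions with a member (YGR182C, YJR120W, PHO4, YGL188C, YLR294C, YHR050W-A, MRP8, RPL3, RPL29 and RPS26A) were named after their values were seen. The steps were tested on simulated data. Python 3.11.15, numpy 2.4.6, pandas 2.3.3, scipy 1.17.1 and matplotlib 3.10.9 were used.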

Additional observations from a re-analysis of the deposited data

How the results depend on the processing

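Of 105 recomputed counts of called genes, 86 stayed within 1.5 times the reported one. With no centring, 11 genes in place of 6 were past 2-fold lower in Bdp1AA Rna15AA against Bdp1AA, 6 in place of 11 higher and 8 in place of 3 lower against WT, and 1 in place of 0 lower in Bdp1AA against WT. Against genes of like length, 2 were lower in Bdp1AA Rna15AA against Bdp1AA, and in Bdp1AA against WT 0 were higher and 1 lower. Leaving out ends listed under several genes gave 3 higher, 1 lower and 2 distal in Bdp1AA against WT, over 31 genes; with no gene minimum 2 were higher there, where other genes enter the median. By the median end, 5 genes were distal and 1 proximal in Bdp1AA Rna15AA against Bdp1AA and likewise 5 and 1 against WT; within 500 nt alone, 12 and 13 were distal. With the minimum doubled, 1 gene was proximal in each: ATP17, at -25.4 nt against Bdp1AA and -21.2 nt against WT. By the median end COX7 moved to -4 nt in both. The cause was not tested, save where fewer ends or another centre enter by construction. No paired analysis was possible because each group is 1 pooled column; leaving out a library was not run for the same reason. Depth limits the smallest sums, 241 reads for QCR9 and 353 for ATP17 in Bdp1AA Rna15AA.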

Other observations

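Among the 16 minus-strand members, COX12 alone had ends listed inside the gene, 40 reads with a signal of 1.72 in WT, and none were listed in Bdp1AA Rna15AA or Bdp1AA.

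In Bdp1AA Rna15AA 53.1% of the reads of SDH3 and 65.7% of those of CYT1 ended at positions also listed under another gene (MRP8 and RPL3), against 0% in Bdp1AA and in WT. Further members went the same way. Among them were COX8 (57.0%), QCR8 (40.1%) and ATP20 (38.8%), each against 0% in Bdp1AA and in WT. COX12 had 59.2%, against 0.77% in Bdp1AA and 0% in WT. These shares count every read of the member at such a position. The reads listed there under the gene next upstream were far fewer. They equalled 2.30% of the member's reads in SDH3, 2.24% in COX8, 2.78% in QCR8, 2.20% in ATP20 and 1.51% in COX12. RPL3 is not the gene next upstream of CYT1, and its reads there were not counted.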
